A study of Homo sapiens with 12 samples.

Results

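The transcripts of 9 enzymes of sugar phosphate and malate metabolism were followed in MiaPaCa-2 cells after knockdown of 3 genes of citrate handling. They are PGLS, PGD, RPIA, RPE, TKT and TALDO1 of the pentose phosphate pathway and the malic enzymes ME1, ME2 and ME3. They were listed by gene symbol, with earlier results of these data known, and all 9 were found among the 70116 gene identifiers of the count table. All 9 were also among the 16197 genes with enough counts to be tested. The 9 do not hold every enzyme of the pathway.

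MiaPaCa-2 is an established human pancreatic cancer cell line, here transfected with small interfering RNA (siRNA), a short duplex that lowers the transcript it matches. The 4 groups of 3 libraries each were siControl, siSLC25A1, siACLY and siACO1, so that all 12 libraries came from transfected cells of 1 line. Neither the siRNA sequences nor the time after transfection nor the nutrient condition is in the labels. They also do not say whether replicates were separate cultures, so p-values measure the spread between these libraries, which may be technical. SLC25A1 exports citrate from mitochondria, ACLY cleaves it in the cytosol to acetyl-CoA plus oxaloacetate, and ACO1 is the cytosolic aconitase that makes isocitrate from it.

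The pentose phosphate pathway branches off glycolysis in the cytosol. Its oxidative branch makes NADPH and ribulose 5-phosphate, and its reversible branch exchanges carbon between pentoses and the sugars of glycolysis. Malic enzymes turn malate into pyruvate, ME1 in the cytosol and ME3 in mitochondria with NADP, and ME2 in mitochondria mainly with NAD. Malate can form from the oxaloacetate that ACLY releases, so citrate export, citrate cleavage and malic enzyme 1 lie on 1 route by which cytosolic NADPH is made. NADPH is used to make fatty acids and sterols and to keep glutathione and thioredoxin reduced.

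Libraries held 24159424 to 43792811 counts. Levels are given as CPM, the counts of a gene per 1000000 counts of its library, after scaling with TMM factors (the trimmed mean of M values), which set the bulk of genes equal between libraries. The targeted transcripts were at 8.75% of the control mean for SLC25A1 in siSLC25A1, 7.25% for ACLY in siACLY and 3.72% for ACO1 in siACO1. KRT8, KRT18 and VIM, markers of a carcinoma line with mesenchymal traits, had at least 18880 counts in every library, while the epithelial marker EPCAM had at most 2. The counts of KRT8, KRT18 and VIM, and of CD68 and INS among the markers of other cells, are uncertain by overlap or shared sequence. Of 11 markers of other cell types, 5 had 0 counts in every library and 10 had at most 10; their sum without COL1A2 lay between 0.065 and 0.498 CPM in all groups. COL1A2, a collagen chain of fibroblasts, was at 875 to 895 CPM in siControl and at 1546 to 1592 CPM in siACO1, where the summed keratins KRT8, KRT18 and KRT19 were at 2067 to 2181 CPM against 3606 to 3745 CPM in siControl. Their part in the results below was not tested. The library siACO1 replicate 3 stood apart, with 11.8 and 12.5 chi-square per degree of freedom against its 2 replicates, where the other replicate pairs of all groups had 2.31 to 5.85. It had the highest level of its group for 8 of the 9 enzymes, by 1.47% (ME2) to 14.8% (TALDO1) over the mean of the other 2 libraries.

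In each knockdown 3 of the 9 transcripts fell and none rose, by small amounts. A transcript was called at an adjusted p under 0.05 in edgeR's quasi-likelihood test, adjusted by the Benjamini-Hochberg method over all tested genes. The 3 were PGD, TKT and ME1 in siSLC25A1, PGLS, TKT and TALDO1 in siACLY, and PGLS, TKT and ME1 in siACO1. The share of members called was 33.3% each time, against 19.6% of all tested genes in siSLC25A1, 36.7% in siACLY and 37.1% in siACO1. Of all genes, 9.27%, 18.3% and 19.3% were called lower and 10.3%, 18.4% and 17.8% higher in the same order. The libraries of the 2 groups did not overlap for 5 of the 9 in siSLC25A1 (37.1% of all genes), 6 in siACLY (50.5%) and 6 in siACO1 (46.3%). The median log2 fold change of the 9 was -0.14 in siSLC25A1, -0.12 in siACLY and -0.08 in siACO1, against medians of -0.004, 0.008 and 0.006 for all tested genes. TMM scaling keeps the latter near 0. Without regard to sign, the median change of the 9 was 0.14, 0.121 and 0.076 in the same order. For all tested genes it was 0.15, 0.204 and 0.209, so the 9 moved no more than a typical gene. In RNA from a whole culture, fewer cells with a transcript and less of it per cell cannot be told apart. The 3 comparisons share their control libraries and are therefore not independent. None of the 9 changed by 2-fold or more with a call, and RPIA, RPE, ME2 and ME3 were not called in any of the 3 comparisons.

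Comparisons between knockdowns called 22.2%, 44.4% and 22.2% of the 9, in the order given here. Between siSLC25A1 and siACLY 2 of the 9 were called, PGD lower and TALDO1 higher in siSLC25A1, where 33.8% of all genes were called, 17.5% higher and 16.3% lower. Between siSLC25A1 and siACO1 4 were called, PGD and TALDO1 lower and RPE and ME1 higher in siSLC25A1, against 42.1% of all genes, 21.8% higher and 20.3% lower. Between siACLY and siACO1 2 were called, TALDO1 lower and ME1 higher in siACLY, against 42.1% of all genes, 21.4% higher and 20.7% lower. Libraries did not overlap for 3, 4 and 4 of the 9 in the same order, against 46.5%, 48% and 49% of all genes. With library totals in place of TMM, 41% instead of 51.8% of the called genes were higher in siSLC25A1 than in siACLY, and 42.2% instead of 51.8% higher than in siACO1.

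**Figure D1:**
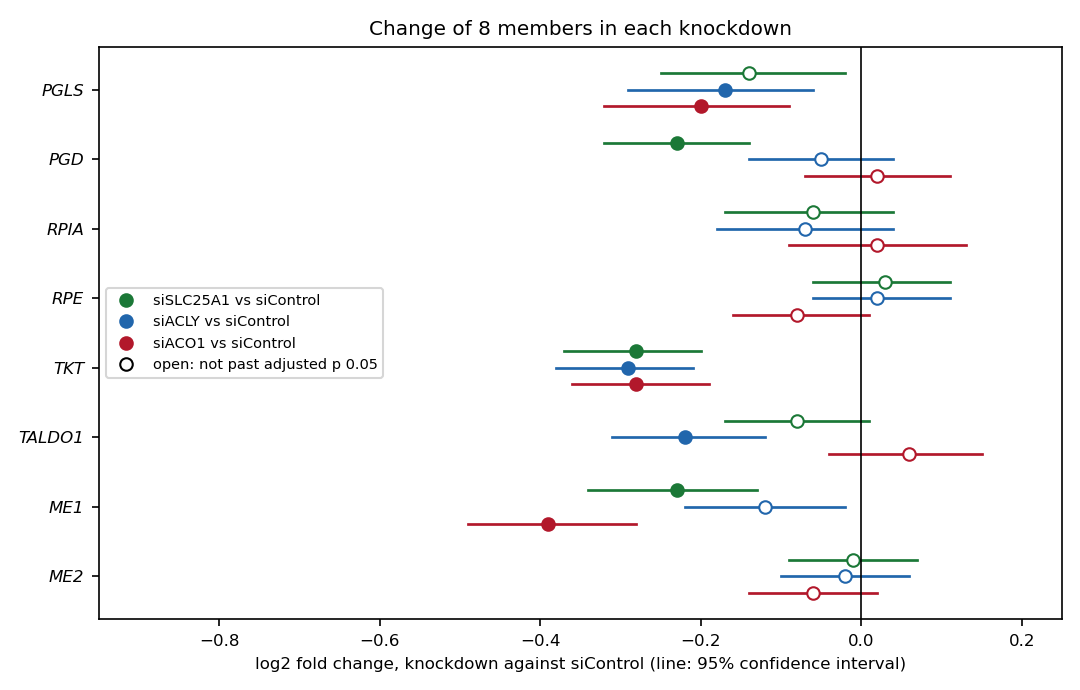
The log2 fold change of 8 enzymes in each knockdown against siControl (horizontal axis), with lines for the 95% confidence interval and open circles where the adjusted p was not under 0.05; ME3 is left out because of its few counts. TKT sits at -0.28 to -0.29 in all 3 knockdowns, while PGD, TALDO1 and ME1 lie at different distances from 0 in the different knockdowns.

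The promoters of ME1, TKT, TALDO1 and PGD are shown, the 4 enzymes with the widest range of group means apart from the sparse ME3. All 4 are known as targets of NRF2, the factor that binds antioxidant response elements. Each is the RefSeq window on GRCh38.p14 from 250 bases before to 50 bases after the annotated start, 5′ to 3′ on the gene's strand. ME1 is on the minus strand at chr6:83431002-83431301, PGD on the plus strand at chr1:10398814-10399113, TKT on the minus strand at chr3:53255973-53256272 and TALDO1 on the plus strand at chr11:747214-747513. Capitals mark matches to the antioxidant response element core TGACNNNGC on either strand in ME1 and PGD, and matches to the GC box GGGCGG on either strand in TKT. TALDO1 has no match to the antioxidant response element core and is printed without capitals.
ME1: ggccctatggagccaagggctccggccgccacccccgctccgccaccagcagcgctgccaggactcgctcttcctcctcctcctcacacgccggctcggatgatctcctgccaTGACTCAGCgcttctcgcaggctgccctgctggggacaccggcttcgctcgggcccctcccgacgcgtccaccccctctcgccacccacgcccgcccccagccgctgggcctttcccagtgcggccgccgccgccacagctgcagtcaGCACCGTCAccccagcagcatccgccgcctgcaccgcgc
PGD: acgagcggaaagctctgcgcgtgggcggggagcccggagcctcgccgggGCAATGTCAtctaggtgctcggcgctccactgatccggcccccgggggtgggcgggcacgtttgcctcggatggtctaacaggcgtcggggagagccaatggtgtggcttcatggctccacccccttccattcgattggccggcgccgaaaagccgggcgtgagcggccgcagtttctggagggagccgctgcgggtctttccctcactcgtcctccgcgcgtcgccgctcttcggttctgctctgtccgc
TKT: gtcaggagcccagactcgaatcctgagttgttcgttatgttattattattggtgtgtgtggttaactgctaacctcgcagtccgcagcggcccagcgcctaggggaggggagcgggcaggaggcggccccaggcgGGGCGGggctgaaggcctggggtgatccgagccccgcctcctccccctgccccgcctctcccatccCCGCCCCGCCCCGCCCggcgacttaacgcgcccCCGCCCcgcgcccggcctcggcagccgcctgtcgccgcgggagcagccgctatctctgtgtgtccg
TALDO1: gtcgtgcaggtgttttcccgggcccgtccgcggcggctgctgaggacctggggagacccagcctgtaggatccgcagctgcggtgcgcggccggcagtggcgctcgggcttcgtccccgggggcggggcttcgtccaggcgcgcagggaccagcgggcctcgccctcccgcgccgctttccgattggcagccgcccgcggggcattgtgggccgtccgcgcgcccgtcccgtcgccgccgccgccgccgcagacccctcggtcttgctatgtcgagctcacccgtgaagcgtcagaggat

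ME1 held 2 matches to TGACNNNGC, the first base of the upstream one, TGACTCAGC, lying 137 bases before the start and that of the other at base 12 of the transcript. The upstream match also holds TGACTCA, a match to the AP-1 site TGANTCA. PGD held 1 match, starting 201 bases before the start, and TKT held none in this window. Of 35114 windows of the same length, 13.3% held at least 1 match to TGACNNNGC, 1.13% held at least 2, and 0.561% held TGACTCAGC itself on either strand. TKT held 5 matches to GGGCGG, of which 3 overlap each other by single bases; 45% of all windows held at least 1 match and 5.14% at least 5. TALDO1 held none to TGACNNNGC and 2 to GGGCGG. Among the other 5 enzymes, RPE held 1 match to TGACNNNGC, and PGLS, RPIA, ME2 and ME3 held none. A match is a description of the sequence, and binding was not measured.

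PGLS and PGD belong to the oxidative branch, and RPIA and RPE act on its product. PGLS (ENSG00000130313.7; GRCh38 chromosome 19, 17511629 to 17521288, plus strand) opens the lactone formed by the preceding dehydrogenation. Its level was 59.3, 59.8 and 60.2 CPM in the siControl libraries and 53.6, 51.3 and 53.9 CPM in siACLY. In siACO1 it was 52.2, 46.9 and 56.7 CPM, and in siSLC25A1 51.9, 55.1 and 55.9 CPM. All 9 knockdown libraries lay below all 3 controls. The fall was called in siACLY (log2 fold change -0.17, SE 0.06, adjusted p 0.0145) and siACO1 (-0.20, SE 0.06, adjusted p 0.00473). In siSLC25A1 the value was -0.14 (95% confidence interval -0.25 to -0.02, adjusted p 0.0828), and it passed the threshold when only those 2 groups were fitted (adjusted p 0.0244) and without siACO1 replicate 2 (adjusted p 0.0491) or replicate 3 (0.0252), which enter the shared estimate of spread. The 3 knockdowns did not differ from each other in PGLS (adjusted p 0.392 to 0.719), with 95% intervals of the differences between -0.09 and 0.18. Without siACO1 replicate 3, siSLC25A1 was above siACO1 by 0.14 (adjusted p 0.0396). The siACO1 call was lost without siACO1 replicate 2 (-0.14, adjusted p 0.0651) and the siACLY call without siACLY replicate 2 (-0.16, adjusted p 0.0572) or with library totals in place of TMM (-0.13, adjusted p 0.0591).

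PGD (ENSG00000142657.21; chromosome 1, 10398592 to 10420144, plus strand), the 6-phosphogluconate dehydrogenase that makes NADPH and ribulose 5-phosphate, fell in siSLC25A1. Its level was 317, 314 and 309 CPM in siControl and 272, 259 and 272 CPM in siSLC25A1, a drop from 313 ± 4.00 to 268 ± 7.69 CPM (SD, n = 3). The groups did not overlap, and the log2 fold change was -0.23 (SE 0.04, adjusted p 0.000298). In siACLY the libraries held 299, 304 and 303 CPM, all just below the controls but not called (log2 fold change -0.05, adjusted p 0.389), and in siACO1 312, 298 and 343 CPM (0.02, adjusted p 0.748). The difference between knockdowns was itself called. PGD was lower in siSLC25A1 than in siACLY by 0.18 (log2 fold change -0.18, SE 0.04, adjusted p 0.00223) and than in siACO1 (-0.25, SE 0.04, adjusted p 3.22e-05). Every library of siSLC25A1 was below every library of the other 3 groups. Between siACLY and siACO1 the difference was -0.07 (interval -0.16 to 0.02), and it was called without siACO1 replicate 2 (-0.12, adjusted p 0.0464). A processed copy, PGDP1, shares part of the PGD transcript, and 9.5% of its 31-base stretches occur in genes elsewhere.

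RPIA (ENSG00000153574.9; chromosome 2, 88691644 to 88750935, plus strand) turns ribulose 5-phosphate into ribose 5-phosphate, the sugar of nucleotides. Its libraries spanned 62.8 to 69.9 CPM in siControl, 61.5 to 63.3 CPM in siSLC25A1, 60.2 to 64.5 CPM in siACLY and 62.3 to 70.4 CPM in siACO1, and all groups overlapped with siControl. No comparison against siControl was called (adjusted p 0.336 to 0.818), with 95% intervals reaching from -0.18 to 0.13. Between siSLC25A1 and siACO1 the value was -0.08 (adjusted p 0.222), and with library totals it was -0.13 and called (adjusted p 0.0486). RPE (ENSG00000197713.15; chromosome 2, 210002565 to 210022259, plus strand), the epimerase that makes xylulose 5-phosphate, was at 91.5, 92.0 and 91.8 CPM in siControl. It was at 86.1, 86.1 and 88.9 CPM in siACO1, below every control library (log2 fold change -0.08, interval -0.16 to 0.01, adjusted p 0.159). In siSLC25A1 and siACLY it was at 91.3 to 95.8 CPM, overlapping siControl (0.03 and 0.02). The difference of siSLC25A1 over siACO1 was 0.10 (adjusted p 0.0495), and that call was lost in 14 of the 19 alternative settings that leave the threshold of the call as it is, in which it ranged from 0.06 to 0.12, so no order of the knockdowns is read from it. The count of RPE is uncertain, since 23.8% of its exon bases overlap KANSL1L on the other strand and 19.6% of its 31-base stretches occur elsewhere, most of all in its copy RPEL1.

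**Figure D2:**
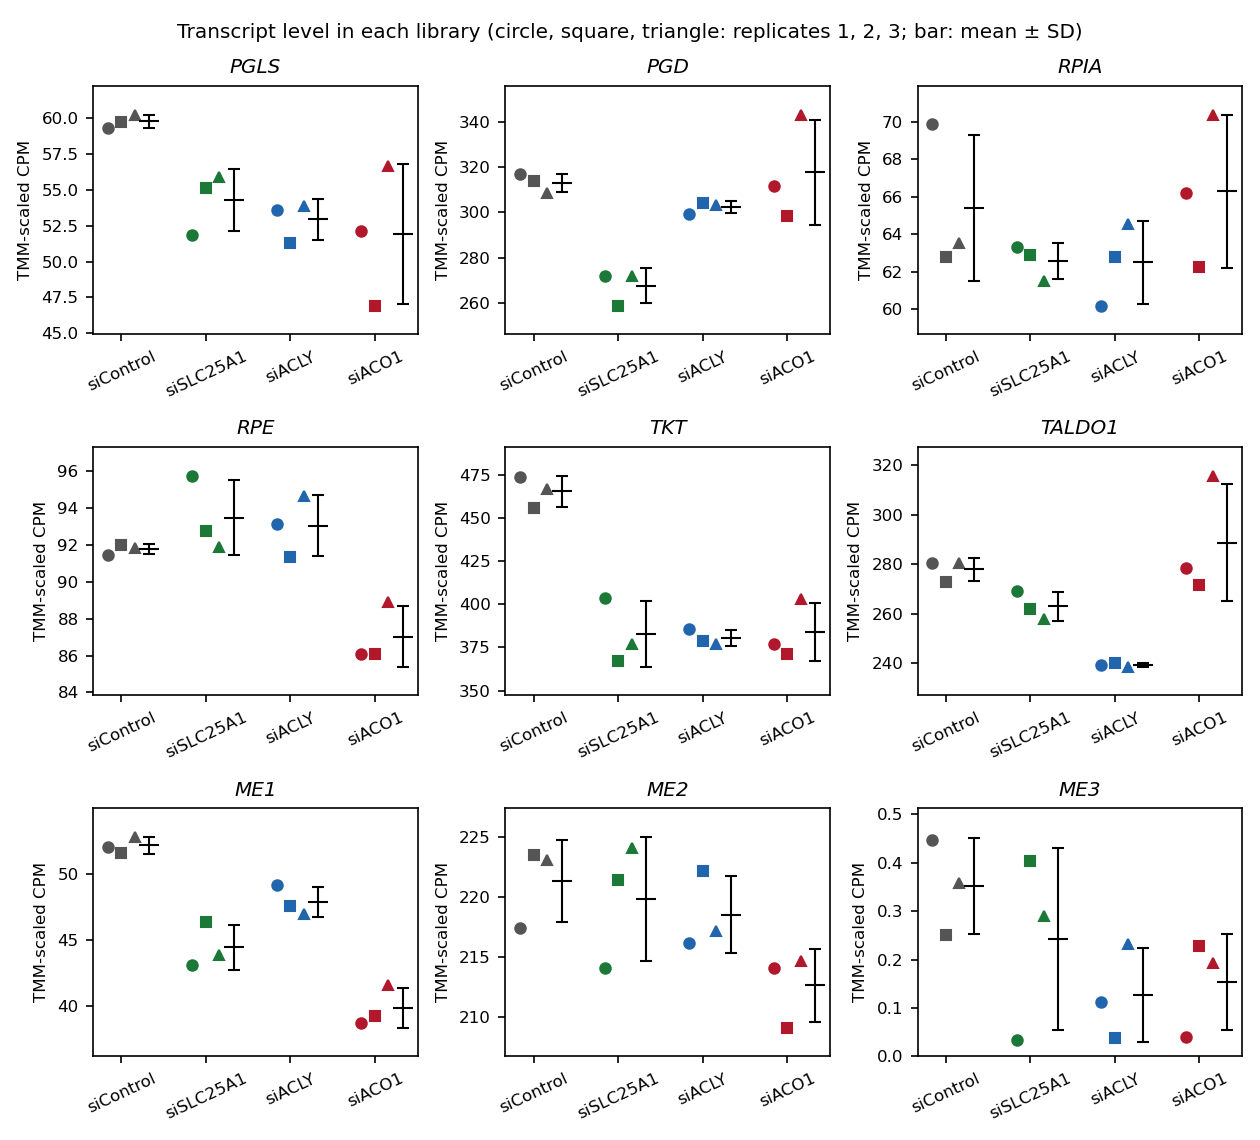
TMM-scaled CPM of each enzyme (vertical axis, a separate scale in each panel that starts at 0 only for ME3) in the 3 libraries of each group, with the mean ± SD beside them. TKT is lower in all 9 knockdown libraries than in siControl, PGD is lowest in siSLC25A1, TALDO1 in siACLY and ME1 in siACO1.

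TKT and TALDO1 carry out the reversible exchange of carbon units between pentose and hexose phosphates. TKT (ENSG00000163931.17; chromosome 3, 53224707 to 53256052, minus strand), transketolase, was at 474, 456 and 467 CPM in siControl. In siSLC25A1 it was at 404, 367 and 377 CPM, in siACLY at 386, 378 and 377 CPM, and in siACO1 at 377, 371 and 403 CPM. No knockdown library reached a control library. The means were 82.2%, 81.7% and 82.4% of control in siSLC25A1, siACLY and siACO1. The log2 fold changes were -0.28 (SE 0.04, adjusted p 8.91e-06), -0.29 (SE 0.04, adjusted p 2.14e-06) and -0.28 (SE 0.04, adjusted p 3.8e-06). All 3 calls held in each of those 19 settings, with values between -0.32 and -0.23. Between the knockdowns the differences were 0.01 for siSLC25A1 over siACLY, 0.00 for siSLC25A1 over siACO1 and -0.01 for siACLY over siACO1. Their 95% intervals ran from -0.10 to 0.09, so a difference between knockdowns larger than 0.10 on the log2 scale lay outside them.

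TALDO1 (ENSG00000177156.11; chromosome 11, 747329 to 765024, plus strand), transaldolase, acts beside TKT on the same sugars but followed another pattern. It was at 281, 273 and 280 CPM in siControl and at 239, 240 and 239 CPM in siACLY, with no overlap (log2 fold change -0.22, SE 0.04, adjusted p 0.000333). In siSLC25A1 it was at 269, 262 and 258 CPM, also below every control library, but the change of -0.08 (interval -0.17 to 0.01) had an adjusted p of 0.234. In siACO1 it was at 279, 272 and 316 CPM, and the change was 0.06 (interval -0.04 to 0.15, adjusted p 0.358). With library totals in place of TMM the siACO1 value was 0.10 and passed the threshold (adjusted p 0.0441), and without siACO1 replicate 3 it was -0.02. TALDO1 was lower in siACLY than in siACO1 (log2 fold change -0.27, SE 0.04, adjusted p 1.3e-05), a call that held in each of the 19 settings, with values between -0.32 and -0.20. It was higher in siSLC25A1 than in siACLY (0.14, adjusted p 0.0194), a call lost without siSLC25A1 replicate 1 (0.12, adjusted p 0.0663) or with library totals (0.10, adjusted p 0.0664). The difference of siSLC25A1 below siACO1 (-0.13, adjusted p 0.0165) was -0.06 (adjusted p 0.171) without siACO1 replicate 3, and the call was also lost without siSLC25A1 replicate 2 (adjusted p 0.0555) or 3 (0.087) and when only those 2 groups were fitted (0.0662).

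Of the malic enzymes, the cytosolic ME1 fell in siSLC25A1 and siACO1. ME1 (ENSG00000065833.9; chromosome 6, 83210389 to 83431071, minus strand) was at 52.0, 51.6 and 52.8 CPM in siControl. It was at 38.7, 39.2 and 41.6 CPM in siACO1, at 43.1, 46.4 and 43.8 CPM in siSLC25A1 and at 49.1, 47.5 and 47.0 CPM in siACLY. Each knockdown lay below siControl without overlap, and the 3 knockdowns did not overlap with each other, siACO1 being lowest and siACLY nearest to siControl. The log2 fold change was -0.39 in siACO1 (SE 0.05, adjusted p 6.05e-07; 76.4% of control) and -0.23 in siSLC25A1 (SE 0.05, adjusted p 0.00144; 85.2% of control). In siACLY it was -0.12 (interval -0.22 to -0.02, adjusted p 0.061), and it was called without siACO1 replicate 3 (-0.13, adjusted p 0.0269) and when only siACLY and siControl were fitted (-0.12, adjusted p 0.0249). ME1 was higher in siACLY than in siACO1 (0.27, SE 0.05, adjusted p 0.000118), which held in each of the 19 settings. Its excess in siSLC25A1 over siACO1 (0.16, adjusted p 0.0183) was lost in 6 of the 19 settings, among them leaving out siSLC25A1 replicate 2 (0.13, adjusted p 0.0919), siACO1 replicate 1 (0.14, 0.0694) or siACO1 replicate 2 (0.14, 0.0574). The difference of siSLC25A1 below siACLY was -0.11 (adjusted p 0.104), and with library totals it was -0.15 and called (adjusted p 0.0237).

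ME2 (ENSG00000082212.13; chromosome 18, 50878734 to 50954257, plus strand), the mitochondrial NAD-linked enzyme, had the narrowest spread of group means of the 9 transcripts, 0.06 on the log2 scale. It was at 217 to 224 CPM in siControl, 214 to 224 CPM in siSLC25A1, 216 to 222 CPM in siACLY and 209 to 215 CPM in siACO1. The siACO1 libraries were all below the siControl libraries (log2 fold change -0.06, interval -0.14 to 0.02, adjusted p 0.245), and the other groups overlapped with siControl. The 95% intervals of the 3 comparisons with siControl reached from -0.14 to 0.07, so changes of ME2 larger than 0.14 lay outside them.

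ME3 (ENSG00000151376.18; chromosome 11, 86441108 to 86672636, minus strand), the mitochondrial NADP-linked enzyme, was near the limit of the libraries. It had 16, 9 and 10 counts in siControl, 1, 10 and 7 in siSLC25A1, 5, 1 and 6 in siACLY, and 1, 7 and 6 in siACO1. All siACLY and siACO1 libraries were below the controls in CPM, and siSLC25A1 overlapped with them. The log2 fold changes of -1.46 in siACLY (interval -2.76 to -0.15, adjusted p 0.0736), -1.11 in siACO1 (-2.38 to 0.15) and -0.57 in siSLC25A1 (-1.78 to 0.64) were not called. Their intervals were wide at this depth, so a change of ME3 stays uncertain. Leaving out siACLY replicate 3 moved the siACLY value to -2.02 (adjusted p 0.0478). A count near 0 in this table cannot be read as absence of the transcript, since LDHA, a lactate dehydrogenase gene expressed in most cultured cells, also had only 0 to 4 counts per library. None of the exon bases of ME3 overlap another gene in GENCODE release 29, and neither do those of LDHA.

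Levels of different genes were compared only per length, as CPM per kilobase of the exons of coding transcripts in GENCODE release 29. In siControl the order was TALDO1 (206 ± 3.35 CPM per kilobase, SD, n = 3), PGD (166 ± 2.14), TKT (153 ± 3.00), PGLS (58.2 ± 0.443), RPIA (35.4 ± 2.12), RPE (26.2 ± 0.0819), ME2 (23.1 ± 0.356), ME1 (15.5 ± 0.184) and ME3 (0.134 ± 0.0375). The libraries of neighbours in this order did not overlap in siControl, and the order of the means was the same in all 4 groups. TALDO1, PGD and TKT stood above the rest on this scale. The lengths are those of merged exons, from 1.03 kilobases for PGLS to 9.57 for ME2. Before scaling by length ME2 (221 CPM in siControl) stood above PGLS (59.8), RPIA (65.4) and RPE (91.8). Its place below these enzymes and its gap to ME1 therefore depend on the merged exon length annotated for ME2.

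**Figure D3:**
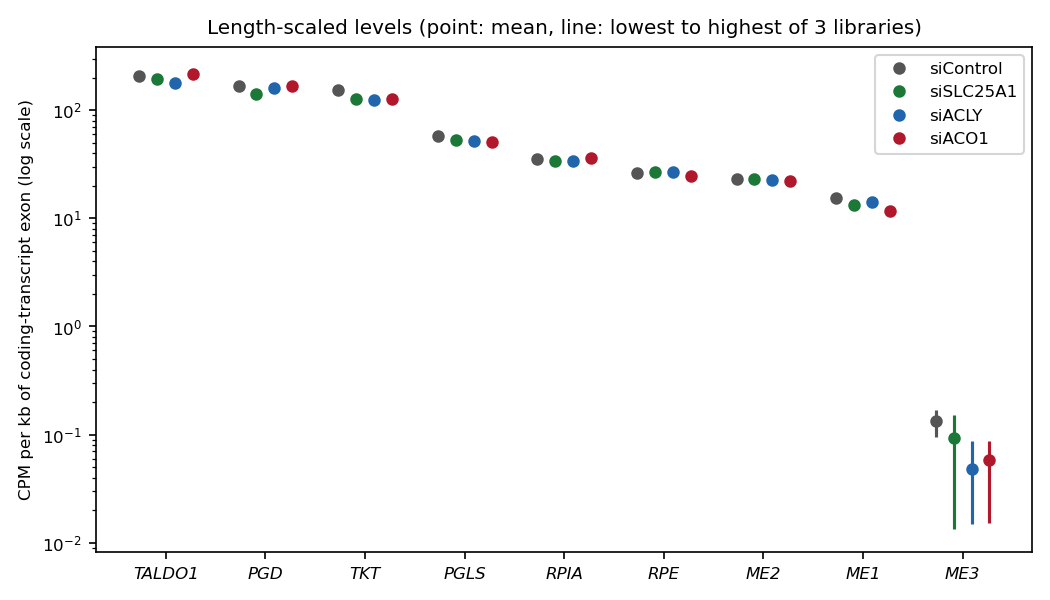
Mean CPM per kilobase of coding-transcript exon (vertical axis, log scale) of the 9 enzymes in the 4 groups, with lines from the lowest to the highest library. TALDO1, PGD and TKT lie above 100 in all groups, ME1 and ME2 between 11 and 24, and ME3 below 0.2.

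ME3, ME1 and TKT had the widest ranges of group means, 1.20, 0.39 and 0.29 on the log2 scale. The 3 genes most like ME1 over the 12 libraries, among those that averaged 5 CPM or more, were INTS13 (Pearson's r 0.962 of log2 CPM), CCNE1 (0.960), the cyclin of entry into DNA synthesis, and ECSIT (0.955). Those most like TKT were PLIN3 (0.957), a lipid droplet coat protein, RASL10B (0.951) and NUMBL (0.949). NQO1, a quinone reductase that uses NADPH, had an r of 0.932 with TKT and ranked 10 for it. ANP32A, DUS1L, TCP1, UNC93B1, OLA1 and IMPA2 ranked between NUMBL and NQO1 (0.946 to 0.933). NQO1 is named here after its value was seen. All points share the same 12 libraries, so these are descriptions of likeness in this experiment. For ME3 the closest gene had an r of 0.856, from 1 to 16 counts of ME3 per library, which is too sparse to name genes. Among the enzymes themselves the highest r over the 12 libraries were 0.760 for PGLS with TKT and 0.714 for PGLS with ME1.

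The enzymes were then set beside 5 lists of related genes. Of 11 tested neighbours of the pentose pathway, 1 rose and 2 fell in siSLC25A1, 1 rose and 3 fell in siACLY, and 1 rose and 5 fell in siACO1. The share of all tested genes called in either direction was 19.6%, 36.7% and 37.1% in the same order. HK2, a hexokinase that makes glucose 6-phosphate, rose in siSLC25A1 (169 ± 7.39 to 230 ± 6.57 CPM, log2 fold change 0.45, adjusted p 1.5e-08) and fell to 113 ± 5.88 CPM in siACO1 (-0.58, adjusted p 3.74e-11). The difference between these 2 knockdowns was 1.03 (adjusted p 7.99e-17). GPI, which links glucose 6-phosphate to glycolysis, fell in siSLC25A1 (-0.23, adjusted p 0.000106), siACLY (-0.28, adjusted p 2.45e-06) and siACO1 (-0.20, adjusted p 0.000176). The hexokinase HK1 rose in siACLY (0.25, adjusted p 1.91e-05) and siACO1 (0.21, adjusted p 0.000172). The largest changes were falls in siACO1 of PGM2, which acts on ribose 1-phosphate (34.5 ± 2.92 to 17.9 ± 0.405 CPM, -0.94, adjusted p 2.85e-12), and DERA, the deoxyribose-phosphate aldolase (71.3 ± 4.72 to 37.6 ± 1.07 CPM, -0.92, adjusted p 3.23e-14), which also fell in siACLY (-0.17, adjusted p 0.00812). Both act on pentose phosphates derived from nucleosides. On the ribose 5-phosphate side, PRPS2, which makes the activated ribose of nucleotides, fell in siSLC25A1 (-0.12, adjusted p 0.0451) and siACLY (-0.16, adjusted p 0.00367), while PRPS1 and RBKS were not called in any of the 3 comparisons. H6PD, another of these neighbours, fell in siACO1 (-0.42, adjusted p 2.12e-06). It was not called in siSLC25A1 (0.13, adjusted p 0.117) or siACLY (-0.01, adjusted p 0.881). The transketolase-like TKTL1 and TKTL2 and the RPE copy RPEL1 had at most 3, 6 and 6 counts in a library and were not tested.

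Of 10 other genes around the supply of NADPH, 3 rose and 1 fell in siSLC25A1, 3 rose and none fell in siACLY, and 1 rose and 4 fell in siACO1. Among all tested genes, 19.6%, 36.7% and 37.1% were called in the same order. IDH2, the mitochondrial NADP-linked isocitrate dehydrogenase, rose in siSLC25A1 (log2 fold change 0.25, adjusted p 0.000314) and siACLY (0.18, adjusted p 0.00347). IDH1, its cytosolic counterpart, uses the isocitrate that ACO1 makes; it was 135 ± 2.57 CPM in siControl and 138 ± 5.43 CPM in siACO1 (0.04, adjusted p 0.625), and it fell in siSLC25A1 to 117 ± 11.2 CPM (-0.21, adjusted p 0.00359). IDH1 was named after its values were seen. MTHFD2, a mitochondrial folate dehydrogenase, rose in siSLC25A1 (0.24, adjusted p 7.53e-05) and siACLY (0.36, adjusted p 4.4e-08) and fell in siACO1 (-0.38, adjusted p 1.05e-08). Its count is uncertain, as genes on the opposite strand cover 33.2% of its exon bases. MTHFD2L, of the same list, rose in siACO1 (0.57, adjusted p 6.79e-07). It was not called in siSLC25A1 (0.20, adjusted p 0.0658) or siACLY (0.08, adjusted p 0.471). ALDH1L2, the mitochondrial enzyme that oxidises formyl-folate with NADP, was at 9.89 ± 1.00 CPM in siControl, 18.0 ± 1.31 CPM in siACLY and 4.99 ± 0.419 CPM in siACO1. Its changes were 0.86 (adjusted p 1.74e-07) and -0.99 (adjusted p 2.19e-07). ALDH1L1, its cytosolic counterpart, had the lowest counts of the list, 10 to 18 in siControl and 2 to 3 in siACO1 (adjusted p 0.00152). NADK, NADK2 and NNT, which make NADP or pass hydride to it, were not called in any knockdown.

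Of 12 users of NADPH, 2 rose and 5 fell in siSLC25A1, 3 rose and 4 fell in siACLY, and 2 rose and 6 fell in siACO1. These counts stand beside 19.6%, 36.7% and 37.1% of all tested genes called in the same order. TXNRD1, the cytosolic thioredoxin reductase, rose in siSLC25A1 (log2 fold change 0.46, adjusted p 2.68e-10) and fell in siACO1 (-0.55, adjusted p 2.19e-12). CBR1, a carbonyl reductase, fell in siACO1 (-0.90, adjusted p 3.72e-13) and siSLC25A1 (-0.19, adjusted p 0.0153). The sterol reductase DHCR7 fell in siSLC25A1 (-0.38, adjusted p 1.97e-05) and rose in siACLY (0.50, adjusted p 6.32e-08) and siACO1 (0.36, adjusted p 1.33e-05). The squalene epoxidase SQLE rose in siACLY (0.47, adjusted p 8.17e-08) and siACO1 (0.48, adjusted p 5.54e-08). The fatty acid synthase FASN fell in siACLY (-0.47, adjusted p 5.37e-05) and siACO1 (-0.48, adjusted p 3.89e-05). In siSLC25A1 FASN was not called (-0.13, adjusted p 0.19). NQO1 fell in each knockdown, from 593 ± 10.4 CPM to 504 ± 21.6 CPM in siSLC25A1 (-0.23, adjusted p 0.000273), 475 ± 19.3 CPM in siACLY (-0.32, adjusted p 1.48e-06) and 461 ± 29.6 CPM in siACO1 (-0.36, adjusted p 1.57e-07).

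Around malate and pyruvate, 11 of 14 genes were tested, of which 2 rose and 1 fell in siSLC25A1, 4 rose and 1 fell in siACLY, and 3 rose and 2 fell in siACO1. Calls covered 19.6%, 36.7% and 37.1% of all tested genes in the same order. SLC25A13, a mitochondrial aspartate and glutamate carrier, rose in siSLC25A1 (log2 fold change 0.29, adjusted p 3.63e-05) and siACLY (0.39, adjusted p 8.93e-08). GOT1, the cytosolic aspartate aminotransferase, rose in siACLY (0.40, adjusted p 3.33e-07) and siSLC25A1 (0.25, adjusted p 0.000759). MDH2, the mitochondrial malate dehydrogenase, fell in siSLC25A1 (-0.25, adjusted p 3.22e-05), siACLY (-0.17, adjusted p 0.00127) and siACO1 (-0.13, adjusted p 0.0112). In siACO1 the largest rises were those of SLC25A11, the carrier that exchanges malate for oxoglutarate (0.38, adjusted p 7.24e-07), and MPC2, a subunit of the pyruvate carrier (0.35, adjusted p 1.45e-05), whose count is uncertain because an opposite-strand gene covers 22.5% of its exon bases and which also rose in siACLY (0.22, adjusted p 0.00317). LDHA, LDHB and SLC25A12, with at most 4, 0 and 6 counts in a library, were not tested.

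Of 9 upstream factors, 1 rose and 3 fell in siSLC25A1, 2 rose and 3 fell in siACLY, and 6 fell and none rose in siACO1. Over all tested genes the called share was 19.6%, 36.7% and 37.1% in the same order. SREBF1, the factor of lipid synthesis genes, fell in siACLY (log2 fold change -0.86, adjusted p 1.9e-14), siACO1 (-0.72, adjusted p 7.63e-13) and siSLC25A1 (-0.32, adjusted p 8.18e-06). SREBF2 fell in siACLY (-0.52, adjusted p 5.62e-10) and siSLC25A1 (-0.23, adjusted p 0.000444). MLXIPL, which encodes the sugar-responsive factor ChREBP, fell in siSLC25A1 (-0.69, adjusted p 4.3e-05) and siACO1 (-1.04, adjusted p 2.26e-08), from 11.0 CPM in siControl. ATF4 rose in siSLC25A1 (0.36, adjusted p 1.35e-06) and siACLY (0.18, adjusted p 0.0035) and fell in siACO1 (-0.46, adjusted p 7.76e-09). Its count is uncertain, with 29.7% of its 31-base stretches also in genes elsewhere. NFE2L2, which encodes NRF2 and is named here after its values were seen, was at 0.04 in siSLC25A1 (adjusted p 0.634), while it fell in siACLY (-0.18, adjusted p 0.00383) and siACO1 (-0.64, adjusted p 2.35e-11). Its count is uncertain because 17.6% of its exon bases overlap genes on the same strand and 4.08% on the other. The genes of these 5 lists were chosen with results of these data known, and no test of a whole list was made.

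**Figure D4:**
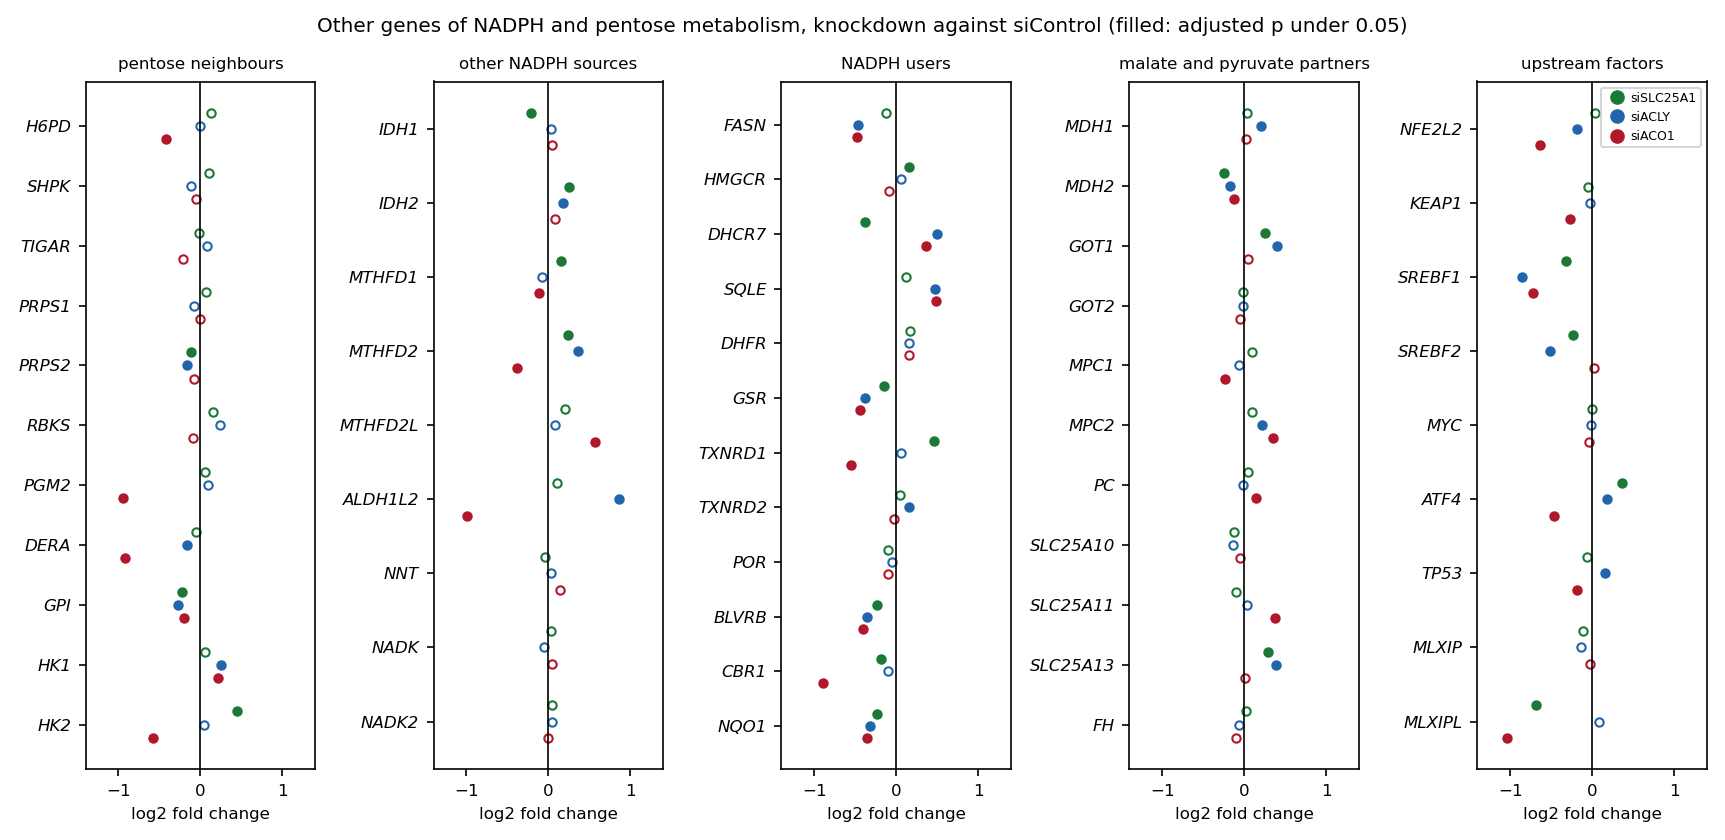
The log2 fold change of each tested gene of the 5 related lists (horizontal axes) in siSLC25A1, siACLY and siACO1 against siControl, filled where the adjusted p was under 0.05; ALDH1L1 is left out because of its few counts. PGM2, DERA, CBR1, ALDH1L2 and MLXIPL lie at -0.90 to -1.04 in siACO1, farther from 0 than any of the enzymes with enough counts.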

How the data were processed

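The authors deposited 1 table of raw read counts per gene, with 1 column per library, per the file headers. CASAVA, FastQC, Trim Galore, STAR 2.7.0e and DESeq2 and the builds GRCh38 and GRCm39 appear in the submitters' processing notes without roles; the counting tool, annotation release and strand setting are not given in the sources used here. Poly(A) RNA was sequenced, per the labels' protocols, and relative counts would not show a change in total RNA. Symbols were matched for 62700 identifiers (89.4%).

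After edgeR's filterByExpr removed genes with few counts, all 12 libraries entered 1 quasi-likelihood model (edgeR 4.0.16 under R 4.3.3, robust option, TMM factors, no block), which left 8 residual degrees of freedom. Tests were two-sided. The enzymes had 962 to 17166 counts per library, ME3 apart, and coefficients of variation of 0.309% to 9.40% within groups. No 2 libraries of the same group agreed within sampling noise. The members, lists and tests were chosen with earlier results of these data known. Beside the 9 enzymes and 3 targets, up to 2 called genes with the largest change were named per list and comparison, with the nearest genes by correlation. Other list genes (H6PD, PRPS1, PRPS2, RBKS, IDH1, MTHFD2L, NADK, NADK2, NNT, FASN, NQO1, NFE2L2) and further comparisons of the named genes were added after their values were seen. A count was called uncertain where at least 20% of exon bases overlapped other genes or 20% of 31-base stretches occurred elsewhere in GENCODE release 29. The alternatives tried were median-of-ratios factors, library totals, the DESeq2 1.42.0 Wald test, no filter, at least 10 counts in every library, fitting only 2 groups, a replicate block, leaving out each library and requiring a log2 fold change of 1. The scripts were tested on simulated data.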

Additional observations from a re-analysis of the deposited data

How the results depend on the processing

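The 9 enzymes in 6 comparisons gave 54 results, recomputed 1015 times with the threshold of the call as it was; 973 values stayed on the same side of the threshold, 29 lost a call, 13 gained a call, and no call changed direction. Requiring an absolute log2 fold change of at least 1 left 0 of the enzymes in each of the 6 comparisons and 170 of all genes in siSLC25A1, 589 in siACLY and 594 in siACO1 against siControl, 539 for siSLC25A1 against siACLY, 879 for siSLC25A1 against siACO1 and 848 for siACLY against siACO1. The number of enzymes called between siSLC25A1 and siACO1, which was 4, was 2 without a low-count filter, 1 when only those 2 groups were fitted, and 1 to 4 when single libraries were left out; without siSLC25A1 replicate 2 it was 1, and without siSLC25A1 replicate 3, siACO1 replicate 1 or siACO1 replicate 2 it was 2. Between siSLC25A1 and siACLY the 2 calls became 1 to 2 when single libraries were left out, with 1 without siSLC25A1 replicate 1. The causes were not tested. Against siControl the number called in siSLC25A1, siACLY and siACO1 was 3 to 4, 2 to 4 and 2 to 4 over the other settings. With library totals the median of all genes moved by at most 0.049 on the log2 scale, and the share of called genes that were higher was 61% against 50.1% in siACLY, 59.5% against 47.9% in siACO1, 41% against 51.8% for siSLC25A1 over siACLY and 42.2% against 51.8% for siSLC25A1 over siACO1.

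Same-numbered libraries did not deviate together throughout (correlations of deviations -0.108 to 0.234), so the numbers were not taken to pair the samples. With the replicate number as a block, the numbers of enzymes called were 3, 3 and 3 against siControl and 2, 4 and 2 between the knockdowns, as without the block, and 3270, 6038 and 6093 of all genes were called in siSLC25A1, siACLY and siACO1 against siControl. Depth limits ME3 most; counting error was not separated from other spread for the other enzymes, of which ME1 had as few as 962 counts in a library.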
